A study of Mus musculus with 16 samples.

Results

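The genes described here are 38 that encode enzymes and carriers of mitochondrial fatty acid oxidation (20 genes) and of the tricarboxylic acid (TCA) cycle (18 genes). They were chosen by name. Each of the 38 had a probe set that the platform's annotation ties to exactly that symbol, and where a gene had several, that with the highest mean was used. All 38 belong to the 19531 genes so represented on the arrays, and all 38 passed the filter on low values. That filter, a log2 intensity of at least 6.05 on 2 or more arrays, left 12861 genes for the tests. Only Hadhb and Suclg2 had more than 1 probe set.

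Expression was measured on Affymetrix Mouse Gene 1.0 ST arrays in CD3+ CD4+ T cells purified by repeated sorting from the spleens of male mice at an age of 6 weeks. Regulatory T cells (Treg), the suppressive CD4 T cells defined by the transcription factor Foxp3, were the GFP+ cells, and conventional T cells (Tconv) were all remaining GFP- CD4+ cells, naive and activated alike. Every mouse carried a GFP reporter at Foxp3. The Foxp3-GFP allele (called fusion) makes a joined Foxp3 and GFP protein, and the Foxp3-IRES-GFP allele (called ires) makes GFP as a separate protein from the same transcript. Each allele was present on the C57BL/6 (B6) and on the NOD background, the latter a strain prone to autoimmune diabetes, which gives 4 mouse lines and, with the 2 cell types, 8 groups of 2 arrays. There was no mouse without a reporter. Nothing in the labels says that both arrays of a group come from separate animals or how many animals were pooled, so the p-values reflect only how far duplicate arrays lie apart, a spread that may be technical.

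Long fatty acids enter the mitochondrion as carnitine esters and are then shortened by rounds of dehydrogenation, hydration, another dehydrogenation and thiolysis, each round yielding acetyl-CoA. The TCA cycle oxidises that acetyl-CoA, and both routes pass their electrons to the respiratory chain. In T cells, oxidation of lipid is commonly associated with Treg and memory cells, whereas recently activated effector cells lean on glycolysis.

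The sorted populations carried the markers of their labels. The summed intensity of 6 Treg markers (Foxp3, Il2ra, Ctla4, Ikzf2, Lrrc32, Tnfrsf18) was 14774 to 16940 on B6 Treg arrays and 12251 to 14116 on NOD Treg arrays, against 862 to 1046 on B6 Tconv arrays and 1118 to 1623 on NOD Tconv arrays, and all 6 were called higher in Treg. Of the B cell and plasma cell markers, Cd79a, Ms4a1 and Pax5 did not pass the filter on low values, nor did the myeloid and dendritic cell genes Csf1r, Adgre1, Itgax and H2-Aa, nor Ncr1 and Klrb1c of NK cells. Other markers of these cells did pass it, among them Cd79b, Ighm, Cd74, Cd8b1, Nkg7, Prf1 and Klrd1. Between Treg and Tconv, Cd79b differed by 0.69 ± 0.09 and Cd74 by 1.0 ± 0.20, both higher in Treg, whereas Klrd1 (-2.35 ± 0.13), Prf1 (-1.1 ± 0.07) and Cd8b1 (-0.42 ± 0.08) were lower in Treg. Cd8a, listed with Cd8b1, was higher in Treg (0.23 ± 0.08), and the myeloid gene Fcgr3 was lower (-0.21 ± 0.07). No other tested marker of these lists was called. Of the CD4 T cell markers, Cd4 was lower in Treg (-0.36 ± 0.06), and Cd3e and Cd3g were not called. The median intensity of an array lay between 86.7 and 99.0, and duplicate arrays differed with an SD of 0.185 to 0.251 (log2) over the tested genes. The number of arrays limits the precision. Values below are log2 intensities, given for single arrays in the order fusion 1, fusion 2, ires 1, ires 2, and differences are on the same log2 scale with the standard error (SE) of a limma model of all 16 arrays. A gene was called when its Benjamini-Hochberg adjusted p, taken over the 12861 genes, was under 0.05. Levels of different probe sets are not comparable with each other. In RNA from a sorted population, fewer cells that express a gene and less RNA per cell cannot be told apart.

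Treg were compared with Tconv over the 4 lines to ask how the enzymes of lipid oxidation and of the cycle differ between the populations. Of the 38 genes, 9 were called higher in Treg (23.7%, where 16.6% of all genes tested were called higher) and 4 were called lower (10.5%, where 11.8% of all genes were). Their median difference was 0.08, against -0.01 over all genes. The higher genes were Decr1, Acadl, Etfb, Slc25a20, Acads, Eci1 and Hadh of fatty acid oxidation and Mdh1 and Mdh2 of the cycle list, and the lower genes were Idh2, Acadm, Acat1 and Acaa2. Fatty acid oxidation thus held 7 higher and 3 lower of 20 genes (median 0.14), and the cycle list 2 higher and 1 lower of 18 (median 0.03). The 25 genes that were not called differed by -0.17 to 0.18.

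Decr1 and Idh2 had the largest differences, in opposite directions. Decr1 (probe set 10511679), the dienoyl-CoA reductase needed for polyunsaturated acids, ran from 7.44 to 7.70 on the 8 Treg arrays (median 7.52) and from 6.52 to 7.15 on the 8 Tconv arrays (median 6.90). Every Treg array lay above every Tconv array. The difference was 0.67 ± 0.07 (adjusted p = 2.25e-07), or 1.59-fold. Idh2 (probe set 10564857), the mitochondrial NADP-dependent isocitrate dehydrogenase, ran from 8.04 to 8.56 on Treg arrays (median 8.32) and from 8.99 to 9.22 on Tconv arrays (median 9.12). Here every Treg array lay below every Tconv array. The difference was -0.80 ± 0.06 (adjusted p = 1.14e-08), 1.74-fold lower in Treg. These were the only 2 of the 38 genes whose 8 Treg and 8 Tconv arrays did not overlap, or 5.26%, where the arrays of 8.24% of all genes tested did not. The calls rest on the mean of the 4 line differences, which favours a like sign in each line. The share of all called genes with a like sign was not counted. Of the 13 called genes, 11 had the same sign in each of the 4 lines, the exceptions being Acadl and Mdh1. All but Mdh2 were called under every alternative processing and with any 1 array left out.

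**Figure D1:**
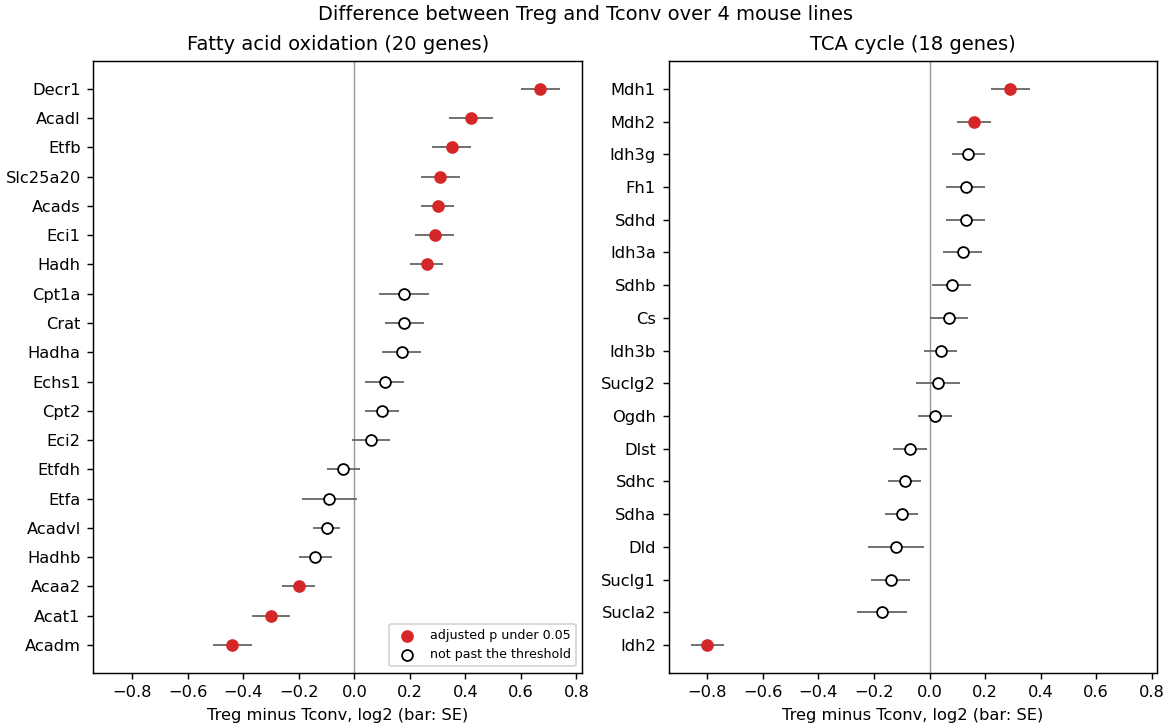
Difference between Treg and Tconv (log2, Treg minus Tconv, mean of 4 mouse lines; bars are the SE) for the 20 fatty acid oxidation genes and the 18 TCA cycle genes, with genes at an adjusted p under 0.05 filled in red. Decr1 at 0.67 and Idh2 at -0.80 lie farthest from 0, and the open circles, the genes not called, lie between -0.17 and 0.18.

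The strains were compared within each cell type, on the same arrays as above, so the values of the 2 kinds of comparison are not independent. In Treg, 11 of the 38 genes were called lower in NOD than in B6 (28.9%, where 9.77% of all genes were called lower) and 3 were called higher (7.89%, where 11.1% of all genes were). The lower genes were Acadl, Suclg2, Mdh1, Sdhb, Sdha, Slc25a20, Sdhd, Acads, Hadh, Etfb and Mdh2, and the higher genes were Crat, Acadm and Sdhc. In Tconv, 6 genes were called higher (15.8%, where 9.33% of all genes were), namely Sdhc, Acaa2, Fh1, Decr1, Crat and Acat1. The 2 called lower (5.26%, where 6.48% of all genes were) were Acadl and Suclg2. The median of the 38 was -0.09 in Treg and 0.04 in Tconv, against -0.02 and 0.02 over all genes. Acadl, Suclg2, Crat and Sdhc were called in both cell types, each with the same sign. The share of all genes called in both was not counted.

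These strain counts moved with the scaling of the arrays and with single arrays. Over all genes called in Treg, 53.3% were higher in NOD, and this share was 68.6% once each array was centred on its median and 43.3% with the arrays' interquartile ranges added to the model, an alternative added after the data were seen. The members then split into 3 higher and 7 lower, and into 1 higher and 12 lower. In Tconv the share was 59.0%, 83.8% and 44.5%, with the members at 7 higher and 2 lower after centring and 3 higher and 2 lower with the covariate. The median of the members was -0.03 in Treg and 0.12 in Tconv after centring, and -0.17 and -0.02 with the covariate. Single calls of members were lost with the covariate (Acadm at 0.21 and Sdhc at 0.24 in Treg, and Decr1 at 0.23, Fh1 at 0.19 and Acat1 at 0.30 in Tconv, adjusted p 0.0689 to 0.307) and after quantile normalization (Crat at 0.26 and Acat1 at 0.22 in Tconv, adjusted p 0.108 and 0.131). They were also lost without the filter (Acadm, Etfb and Sdhc in Treg, and Crat and Acat1 in Tconv, adjusted p 0.0589 to 0.0724) and in a model of only the groups compared (Sdhc in Treg, and Crat and Decr1 in Tconv, adjusted p 0.0562 to 0.0657). Without B6 ires Treg replicate 2, the count of lower genes in Treg was 6 in place of 11. The 3 higher genes in Treg became 1 without B6 fusion replicate 1, NOD fusion replicate 2, B6 ires replicate 1 or NOD ires replicate 1. The 6 higher genes in Tconv became 3 without B6 fusion replicate 1 and 2 without NOD fusion replicate 2, B6 ires replicate 1 or NOD ires replicate 1. The interquartile range of the log2 values was 2.70 to 3.07 on B6 arrays (median 2.81) and 2.83 to 3.06 on NOD arrays (median 3.0).

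**Figure D2:**
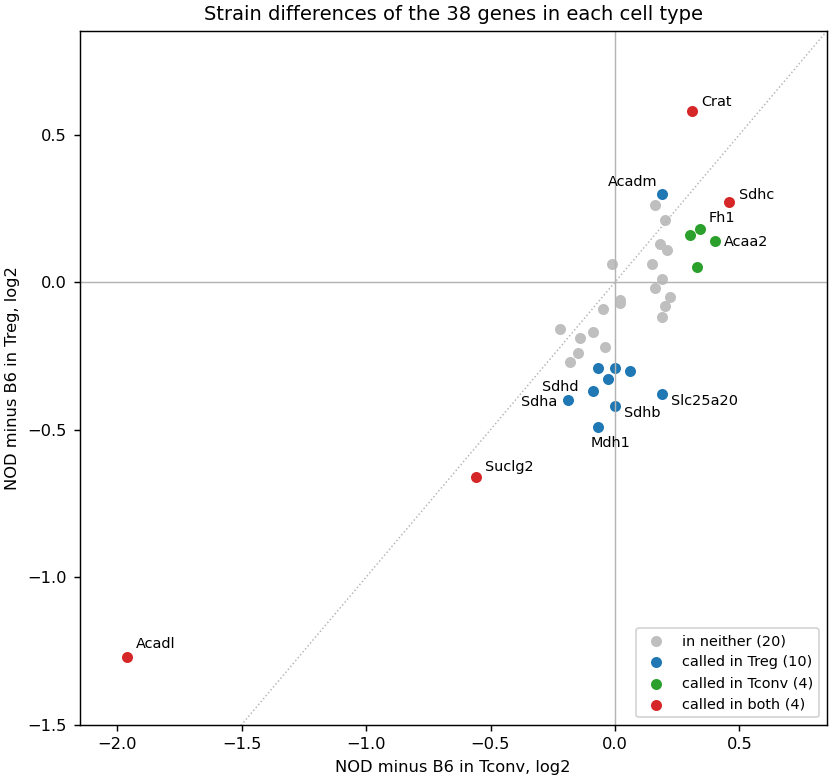
Difference between NOD and B6 (log2, NOD minus B6, mean of both alleles) of each of the 38 genes in Treg (vertical axis) against that in Tconv (horizontal axis), coloured by where the gene was called; the dotted line marks equal differences. Acadl lies farthest from 0 in both (-1.27 and -1.96), and 31 of the 38 genes lie below the dotted line.

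Carnitine carries the acyl chains across the inner membrane. Slc25a20, the carnitine-acylcarnitine translocase, was 9.0, 8.94, 8.70 and 9.0 on the B6 Treg arrays and 8.52, 8.49, 8.48 and 8.64 on the NOD Treg arrays. On Tconv arrays it was 8.19, 8.24, 8.25 and 8.58 in B6 and 8.62, 8.36, 8.49 and 8.55 in NOD. The 4 B6 Treg arrays were the highest of all 16. Treg exceeded Tconv by 0.31 ± 0.07 (adjusted p = 0.0017), with a difference of 0.60 in B6 and 0.03 in NOD. NOD Treg were below B6 Treg by -0.38 ± 0.10 (adjusted p = 0.0107), and that call was lost without B6 ires Treg replicate 2 (-0.30, adjusted p = 0.0687). Crat, carnitine acetyltransferase, which moves acetyl groups between CoA and carnitine, was 7.48, 7.39, 7.49 and 7.32 in B6 Treg and 8.18, 7.96, 7.89 and 7.95 in NOD Treg. In Tconv it was 7.62, 7.20, 7.38 and 7.28 in B6 and 7.77, 7.60, 7.68 and 7.69 in NOD. All NOD Treg arrays exceeded all B6 Treg arrays, whereas in Tconv 1 B6 array lay inside the NOD range. The strain difference was 0.58 ± 0.10 (adjusted p = 0.000449) in Treg and 0.31 ± 0.10 (adjusted p = 0.0379) in Tconv. The Tconv call was lost without each of the Tconv arrays other than B6 fusion replicate 1 (adjusted p 0.0605 to 0.156). Cpt1a, the outer-membrane palmitoyltransferase that sets the rate of entry, and Cpt2, its inner-membrane partner, were called in no comparison. For Cpt1a the difference between Treg and Tconv was 0.18 ± 0.09 (adjusted p = 0.144), and for Cpt2 it was 0.10 ± 0.06 (adjusted p = 0.223).

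The acyl-CoA dehydrogenases, which begin each round and differ in the chain length they accept, did not move together. Acadl (probe set 10355246), the long-chain enzyme, was 8.54, 8.80, 8.44 and 8.55 in B6 Treg and 7.18, 7.33, 7.46 and 7.30 in NOD Treg. In Tconv it was 8.44, 8.49, 8.39 and 8.73 in B6 and 6.48, 6.58, 6.87 and 6.26 in NOD. All 8 NOD arrays lay below all 8 B6 arrays, and among NOD arrays all 4 Treg lay above all 4 Tconv. NOD was below B6 by -1.27 ± 0.12 (adjusted p = 6.52e-07) in Treg and -1.96 ± 0.12 (adjusted p = 2.24e-09) in Tconv, 2.41-fold and 3.90-fold lower. Over the 4 lines Treg were above Tconv by 0.42 ± 0.08 (adjusted p = 0.000676), a mean of 0.07 in B6 and 0.77 in NOD. Its range over the 16 arrays, 2.54, was the widest of the 38 genes, whose median range was 0.70.

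Acadm, the medium-chain enzyme, was 8.12, 8.34, 8.24 and 8.49 in B6 Treg, 8.61, 8.59, 8.72 and 8.49 in NOD Treg, 8.61, 8.88, 8.72 and 8.97 in B6 Tconv and 8.85, 8.91, 9.20 and 8.98 in NOD Tconv. Within each line the Treg arrays were the lower ones, although the 8 and 8 arrays overlapped. Treg differed from Tconv by -0.44 ± 0.07 (adjusted p = 7.88e-05). NOD Treg were above B6 Treg by 0.30 ± 0.10 (adjusted p = 0.0405), a call lost without B6 fusion Treg replicate 1, either NOD fusion Treg array, B6 ires Treg replicate 1 or NOD ires Treg replicate 1 (adjusted p 0.0788 to 0.158). Acads, the short-chain enzyme, was 8.99, 9.18, 8.89 and 9.0 in B6 Treg, 8.71, 8.59, 8.70 and 8.73 in NOD Treg, 8.37, 8.60, 8.70 and 8.57 in B6 Tconv and 8.56, 8.38, 8.64 and 8.53 in NOD Tconv. The 4 B6 Treg arrays were again the highest of all. Treg were above Tconv by 0.30 ± 0.06 (adjusted p = 0.000886), and NOD Treg were below B6 Treg by -0.33 ± 0.09 (adjusted p = 0.013). The strain call was lost without NOD fusion Treg replicate 2 (-0.30, adjusted p = 0.0554), without B6 ires Treg replicate 2 (-0.30, adjusted p = 0.0598) and after centring (-0.27, adjusted p = 0.0581). Acadvl, the very-long-chain enzyme, spanned only 0.28 over the 16 arrays, the narrowest range of the 38, and was called in no comparison.

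In the later steps of the round, Hadh was higher in Treg, and the thiolases Acaa2 and Acat1 were lower. Hadh, the short-chain hydroxyacyl-CoA dehydrogenase, was 9.73, 10.02, 9.78 and 9.71 in B6 Treg, 9.40, 9.41, 9.64 and 9.59 in NOD Treg, 9.27, 9.39, 9.36 and 9.45 in B6 Tconv and 9.42, 9.31, 9.51 and 9.46 in NOD Tconv. All B6 Treg arrays lay above every other array. Treg exceeded Tconv by 0.26 ± 0.06 (adjusted p = 0.00206), and the strain difference in Treg was -0.30 ± 0.08 (adjusted p = 0.0179). The latter call was lost without B6 fusion Treg replicate 2 (-0.22, adjusted p = 0.0529), B6 ires Treg replicate 1 (-0.28, adjusted p = 0.061) or NOD ires Treg replicate 2 (-0.29, adjusted p = 0.0581), and after centring (-0.24, adjusted p = 0.0927). Acaa2, the mitochondrial ketoacyl-CoA thiolase, was 8.39, 8.65, 8.63 and 8.68 in B6 Treg, 8.66, 8.62, 8.86 and 8.75 in NOD Treg, 8.58, 8.64, 8.71 and 8.67 in B6 Tconv and 9.08, 8.96, 9.15 and 9.03 in NOD Tconv. The 4 NOD Tconv arrays were the highest of the 16. Treg were below Tconv by -0.20 ± 0.06 (adjusted p = 0.0155), and NOD Tconv were above B6 Tconv by 0.40 ± 0.08 (adjusted p = 0.00365).

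Acat1, the acetoacetyl-CoA thiolase that also serves ketone body and isoleucine breakdown, was 8.61, 8.67, 8.71 and 8.78 in B6 Treg, 8.93, 8.66, 9.06 and 8.75 in NOD Treg, 8.71, 8.98, 8.97 and 9.02 in B6 Tconv and 9.30, 9.19, 9.26 and 9.14 in NOD Tconv. NOD Tconv again held the 4 highest arrays. Treg differed from Tconv by -0.30 ± 0.07 (adjusted p = 0.0018) and NOD Tconv from B6 Tconv by 0.30 ± 0.10 (adjusted p = 0.0408). The strain call was lost without every Tconv array other than B6 fusion replicate 2 and NOD ires replicate 2, and without either B6 ires Treg array (adjusted p 0.0521 to 0.187). Echs1, Hadha and Hadhb, the crotonase and the subunits of the trifunctional protein (of which Hadhb is a thiolase as well), were called in no comparison, with differences between Treg and Tconv of 0.11, 0.17 and -0.14. The other probe set of Hadhb gave -0.14 as well.

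Among the auxiliary enzymes for unsaturated chains, Decr1 and the isomerase Eci1 were higher in Treg. By line, Decr1 was 7.62, 7.45, 7.53 and 7.44 in B6 Treg, 7.45, 7.51, 7.57 and 7.70 in NOD Treg, 6.52, 6.76, 6.58 and 6.93 in B6 Tconv and 7.05, 7.15, 7.04 and 6.87 in NOD Tconv. The 3 lowest arrays were from B6 Tconv. NOD Tconv exceeded B6 Tconv by 0.33 ± 0.10 (adjusted p = 0.0273), a call lost without B6 fusion Tconv replicate 1, NOD fusion Tconv replicate 2, B6 ires Tconv replicate 1 or NOD ires Tconv replicate 1 (adjusted p 0.101 to 0.136). Eci1 was 8.37, 8.23, 8.10 and 8.20 in B6 Treg, 8.13, 7.96, 7.95 and 7.76 in NOD Treg, 7.74, 7.94, 7.83 and 8.04 in B6 Tconv and 7.84, 7.61, 7.83 and 7.55 in NOD Tconv. The 3 highest arrays were from B6 Treg and the 2 lowest from NOD Tconv. Treg exceeded Tconv by 0.29 ± 0.07 (adjusted p = 0.00309). The isomerase Eci2 differed by 0.06 ± 0.07 (adjusted p = 0.568), with opposite signs in B6 (0.20) and NOD (-0.08).

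Electron transfer flavoprotein collects the electrons of the acyl-CoA dehydrogenases. Etfb, its beta subunit, was 8.63, 8.68, 8.54 and 8.72 in B6 Treg, 8.27, 8.34, 8.35 and 8.45 in NOD Treg, 7.95, 8.26, 8.01 and 8.37 in B6 Tconv and 8.17, 7.97, 8.25 and 8.19 in NOD Tconv. The 4 B6 Treg arrays lay above all others. Treg exceeded Tconv by 0.35 ± 0.07 (adjusted p = 0.00065), and NOD Treg differed from B6 Treg by -0.29 ± 0.10 (adjusted p = 0.046). That strain call was lost without any 1 of the 8 Treg arrays or either NOD ires Tconv array (adjusted p 0.0528 to 0.16) and after centring (-0.23, adjusted p = 0.157). The alpha subunit Etfa and the oxidoreductase Etfdh, which hands the electrons to ubiquinone, were called in no comparison (Treg against Tconv, -0.09 ± 0.10 and -0.04 ± 0.06).

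Among the oxidative steps from citrate to succinyl-CoA only Idh2 was called between Treg and Tconv. Its Treg arrays were 8.33, 8.56, 8.04 and 8.25 in B6 and 8.48, 8.30, 8.31 and 8.33 in NOD, and its Tconv arrays 9.11, 9.21, 9.20 and 8.99 and 9.22, 9.02, 9.12 and 9.12. The difference was alike in size across lines, from -0.71 in B6 fusion to -0.95 in B6 ires, with -0.73 and -0.80 in NOD fusion and NOD ires. The strains differed by 0.06 ± 0.09 in Treg and -0.01 ± 0.09 in Tconv, neither of which passed the test. Cs, citrate synthase, the 3 subunits of the NAD-dependent isocitrate dehydrogenase (Idh3a, Idh3b, Idh3g), and the oxoglutarate dehydrogenase components Ogdh, Dlst and Dld were called in no comparison. Their Treg against Tconv differences were 0.07, 0.12, 0.04, 0.14, 0.02, -0.07 and -0.12 in that order.

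Succinate dehydrogenase, which is both a cycle enzyme and complex II of the respiratory chain, showed 3 subunits lower and 1 higher in NOD Treg. Sdha, the flavoprotein, was 10.48, 10.44, 10.39 and 10.52 in B6 Treg, 9.90, 10.16, 10.10 and 10.08 in NOD Treg, 10.42, 10.51, 10.39 and 10.49 in B6 Tconv and 10.28, 10.23, 10.36 and 10.17 in NOD Tconv. All NOD arrays lay below all B6 arrays of the same cell type, and the difference was -0.40 ± 0.08 (adjusted p = 0.00306) in Treg and -0.19 ± 0.08 (adjusted p = 0.125) in Tconv, the latter not passing the test. Sdhb, the iron-sulphur subunit, was 8.75, 8.68, 8.32 and 8.55 in B6 Treg, 8.26, 8.29, 8.06 and 8.05 in NOD Treg, 8.21, 8.35, 8.09 and 8.49 in B6 Tconv and 8.24, 8.28, 8.33 and 8.31 in NOD Tconv. The strains did not overlap in Treg and overlapped in Tconv, with differences of -0.42 ± 0.09 (adjusted p = 0.00418) and 0.0 ± 0.09 (adjusted p = 0.981).

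Of the membrane anchors, Sdhd was 8.98, 8.85, 9.04 and 9.24 in B6 Treg, 8.71, 8.70, 8.59 and 8.61 in NOD Treg, 8.77, 8.70, 8.64 and 8.93 in B6 Tconv and 8.81, 8.63, 8.74 and 8.49 in NOD Tconv. All NOD Treg arrays were below all B6 Treg arrays. The difference in Treg was -0.37 ± 0.09 (adjusted p = 0.00891), and it missed the threshold without B6 ires Treg replicate 2 (-0.32, adjusted p = 0.054). Sdhc, the other anchor, was 9.03, 8.96, 9.16 and 9.18 in B6 Treg, 9.23, 9.38, 9.55 and 9.25 in NOD Treg, 9.01, 9.05, 9.04 and 9.20 in B6 Tconv and 9.52, 9.44, 9.70 and 9.50 in NOD Tconv. For this subunit all NOD arrays lay above all B6 arrays in both cell types. NOD exceeded B6 by 0.27 ± 0.09 (adjusted p = 0.0394) in Treg and 0.46 ± 0.09 (adjusted p = 0.00201) in Tconv. The Treg call was lost without either B6 fusion Tconv array or any Treg array other than NOD fusion replicate 1 and NOD ires replicate 2 (adjusted p 0.051 to 0.172). Between Treg and Tconv none of the 4 subunits was called.

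Fumarase and the malate dehydrogenases close the cycle. Fh1, fumarase, was 8.35, 8.56, 8.23 and 8.52 in B6 Treg, 8.59, 8.59, 8.64 and 8.55 in NOD Treg, 8.09, 8.25, 8.08 and 8.41 in B6 Tconv and 8.49, 8.57, 8.58 and 8.55 in NOD Tconv. The B6 Tconv arrays lay below all NOD Tconv arrays. NOD Tconv exceeded B6 Tconv by 0.34 ± 0.10 (adjusted p = 0.025), a call lost without B6 fusion Tconv replicate 1, NOD fusion Tconv replicate 2, B6 ires Tconv replicate 1 or NOD ires Tconv replicate 1 (adjusted p 0.0821 to 0.125) and with the interquartile range as a covariate (0.19, adjusted p = 0.307). Mdh1, the cytosolic malate dehydrogenase of the malate-aspartate shuttle and so not a cycle enzyme in the strict sense, was 10.37, 10.06, 10.05 and 10.22 in B6 Treg, 9.73, 9.91, 9.59 and 9.50 in NOD Treg, 9.56, 9.65, 9.64 and 9.85 in B6 Tconv and 9.72, 9.51, 9.65 and 9.55 in NOD Tconv. The 4 B6 Treg arrays stood above the other 12. Treg exceeded Tconv by 0.29 ± 0.07 (adjusted p = 0.00276), by 0.50 in B6 and 0.08 in NOD, and NOD Treg were below B6 Treg by -0.49 ± 0.09 (adjusted p = 0.00138).

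Mdh2, the mitochondrial enzyme, was 11.29, 11.45, 11.39 and 11.51 in B6 Treg, 11.13, 11.13, 11.09 and 11.15 in NOD Treg, 11.05, 11.15, 11.19 and 11.20 in B6 Tconv and 11.11, 10.97, 11.10 and 11.10 in NOD Tconv. The B6 Treg arrays were the highest here too. Calls higher in Treg and lower in NOD Treg favour that order in a gene, and its share over all genes was not counted. Treg exceeded Tconv by 0.16 ± 0.06 (adjusted p = 0.0385), but the call was lost without 13 of the 16 arrays taken singly, all but NOD fusion Tconv replicate 1, B6 fusion Treg replicate 1 and B6 ires Treg replicate 1 (adjusted p 0.0503 to 0.0967), after centring (adjusted p = 0.179) and without the filter (adjusted p = 0.0714). The strain difference in Treg was -0.29 ± 0.08 (adjusted p = 0.0163). It was lost without B6 ires Treg replicate 2 (-0.26, adjusted p = 0.0739), without NOD ires Treg replicate 1 (-0.27, adjusted p = 0.0541) and after centring (-0.23, adjusted p = 0.0917), and it was 0.01 after quantile normalization (adjusted p = 0.955).

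**Figure D3:**
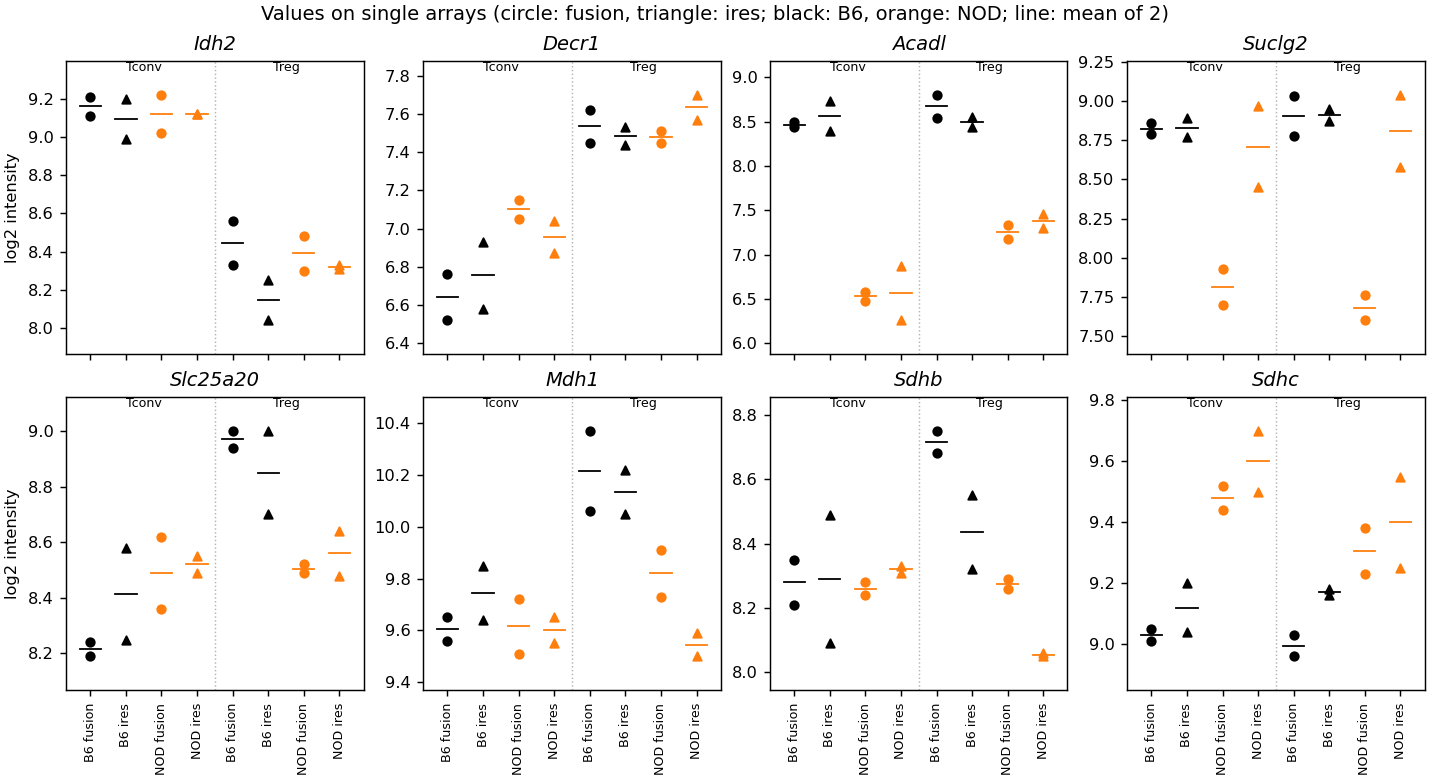
Log2 intensity of 8 of the genes on each array, by mouse line, with Tconv to the left and Treg to the right of the dotted line (circles fusion, triangles ires, black B6, orange NOD; short lines are the mean of 2 arrays). Idh2 and Decr1 separate the cell types in every line, Slc25a20 and Mdh1 are highest on the 4 B6 Treg arrays, and Suclg2 is lowest on the 4 NOD fusion arrays.

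For 8 of the 9 genes called higher in Treg, all but Acadl, the fitted excess of Treg over Tconv was the larger in B6, at 0.26 (Mdh2) to 0.81 (Decr1), against 0.03 (Slc25a20) to 0.53 (Decr1) in NOD. The test of that difference, the strain effect in Treg minus that in Tconv, called 0 of the 38 genes by limma, where 0.816% of all genes were called in either direction, and 9 of the 38 had an unadjusted p under 0.05. It was negative for 31 of 38 genes (81.6%) and for 54.0% of all genes, with medians of -0.15 and -0.01. After quantile normalization it was negative for 29 of the 38, with a median of -0.08. The members nearest the threshold were Acadl at 0.70 ± 0.17 (adjusted p = 0.0606) and Slc25a20 at -0.57 ± 0.14 (adjusted p = 0.0656). Both were called with a stricter filter, with trend and robust variances and with a pseudocount of 16 (adjusted p 0.0237 to 0.0485). Leaving out 1 array called 1 or 2 genes in 5 cases. Slc25a20 was called without NOD fusion Tconv replicate 2, B6 ires Tconv replicate 2 or B6 ires Treg replicate 1, Acadl without B6 ires Tconv replicate 1 or NOD ires Tconv replicate 1, and Sdhb also without B6 ires Tconv replicate 2.

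The respiratory chain, which takes up the electrons of both pathways, moved in the strain comparison of Treg as well. Of 43 tested nuclear subunits of complexes I, III, IV and ATP synthase, with cytochrome c, 24 were lower in NOD Treg than in B6 Treg (55.8%, where 9.77% of all genes were) and 0 were higher, with a median of -0.32. In Tconv, 1 was lower (2.33%, where 6.48% of all genes were) and 0 were higher (where 9.33% were), with a median near 0. The differences in Treg were -0.72 ± 0.13 for Cox7a2, -0.69 ± 0.19 for cytochrome c itself (Cycs), -0.66 ± 0.15 for Cox6c and -0.65 ± 0.11 for Cox7b. The count was 12 without B6 ires Treg replicate 2 and 15 after centring. The difference between the cell types' strain effects was negative for all 43, and 2 were called, Cox7a2 at -0.81 ± 0.19 (adjusted p = 0.0475) and Ndufs8 at -0.52 ± 0.12 (adjusted p = 0.0421), where 0.568% of all genes were called lower. Neither was called after centring (adjusted p = 0.0581 for Cox7a2 and 0.0772 for Ndufs8), and Cox7a2 was not called after quantile normalization (adjusted p = 0.0529). With 1 array left out, Cox7a2 lost the call in 12 of 16 cases and Ndufs8 in 14, and 0 to 3 of the 43 were called. Between Treg and Tconv only Atp5d and Ndufs8 were higher and Uqcrfs1 was lower, with 4 or 5 higher when either B6 ires Treg replicate 1 or B6 ires Tconv replicate 2 was left out, and 2 lower without B6 fusion Treg replicate 2, B6 ires Tconv replicate 1 or NOD fusion Treg replicate 2. After quantile normalization 4 were higher and 4 lower. In the main fit the shares were 4.65% higher and 2.33% lower, where 16.6% and 11.8% of all genes were.

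Cell cycle genes moved beside these differences. Of 19 tested, 17 were higher in Treg than in Tconv (89.5%, where 16.6% of all genes were), with a median of 0.68. Mki67 was higher by 1.48 ± 0.11 and Top2a by 1.0 ± 0.11. In NOD Treg 17 were lower than in B6 Treg (89.5%, where 9.77% of all genes were), with a median of -0.64 and Top2a at -0.94 ± 0.15. In Tconv 6 were lower (31.6%, where 6.48% of all genes were) and 1 higher (5.26%, where 9.33% were), with a median of -0.31. The 6 became 2 without B6 fusion Tconv replicate 2, 3 without NOD fusion Tconv replicate 2, 1 without NOD ires Tconv replicate 1 and 11 without NOD ires Tconv replicate 2. Their summed intensity was 4729 to 6925 in B6 Treg, 3634 to 4234 in NOD Treg, 3392 to 4053 in B6 Tconv and 3023 to 3711 in NOD Tconv. Markers of the other lists also differed between strains. In NOD Treg, Cd8b1 (-0.57 ± 0.11), Cd8a (-0.50 ± 0.12) and Blk (-0.39 ± 0.08) were lower. Eomes (0.63 ± 0.15) and Prf1 (0.31 ± 0.10) were higher there. In NOD Tconv, Klrd1 (-0.66 ± 0.19) was lower and Prf1 (0.43 ± 0.10) higher. Cd3e was higher in NOD Treg (0.51 ± 0.08) and Tconv (0.54 ± 0.08), as was Cd3g (0.23 ± 0.08 and 0.24 ± 0.08). Some of these calls were lost with single arrays left out. Myeloid and dendritic cell markers moved too. Of the 6 that passed the filter, Cd74, Lyz2 and Itgam were lower in NOD Treg (-1.01 ± 0.29, -0.60 ± 0.20 and -0.45 ± 0.13), and the sum over 12 markers was 770 to 993 in B6 Treg, 568 to 644 in NOD Treg, 647 to 690 in B6 Tconv and 590 to 1106 in NOD Tconv. All 3 calls were lost without B6 fusion Treg replicate 2, NOD fusion Treg replicate 2 or NOD ires Treg replicate 1, and 1 was left without B6 ires Treg replicate 1, after quantile normalization or with the covariate.

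The Treg markers moved with strain as well. In NOD Treg, Lrrc32 (-1.04 ± 0.12) and Ctla4 (-0.63 ± 0.17) were lower than in B6 Treg, and only 1 of the 6 was called lower without B6 fusion Treg replicate 1. In NOD Tconv, Il2ra (0.85 ± 0.21), Tnfrsf18 (0.73 ± 0.08), Ikzf2 (0.61 ± 0.13) and Foxp3 (0.50 ± 0.16) were higher than in B6 Tconv. These 4 became 2 without B6 fusion replicate 1, NOD fusion replicate 2 or NOD ires replicate 1 of Tconv, and 1 with the interquartile range as a covariate. After quantile normalization, 1 marker was higher and 1 lower in NOD Treg. The strain effect in Treg minus that in Tconv was negative for all 6 (median -0.75, or -0.50 after quantile normalization), so the fitted excess of these markers in Treg was the smaller in NOD, as was that of 8 of the 9 members called higher in Treg. It was called for Tnfrsf18 (-0.94 ± 0.12, adjusted p = 0.00031) and Lrrc32 (-0.93 ± 0.17, adjusted p = 0.00676), under each scaling and with any 1 array left out. The part of cycling cells, of Treg marker levels or of other cells in the results of the members was not tested.

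**Figure D4:**
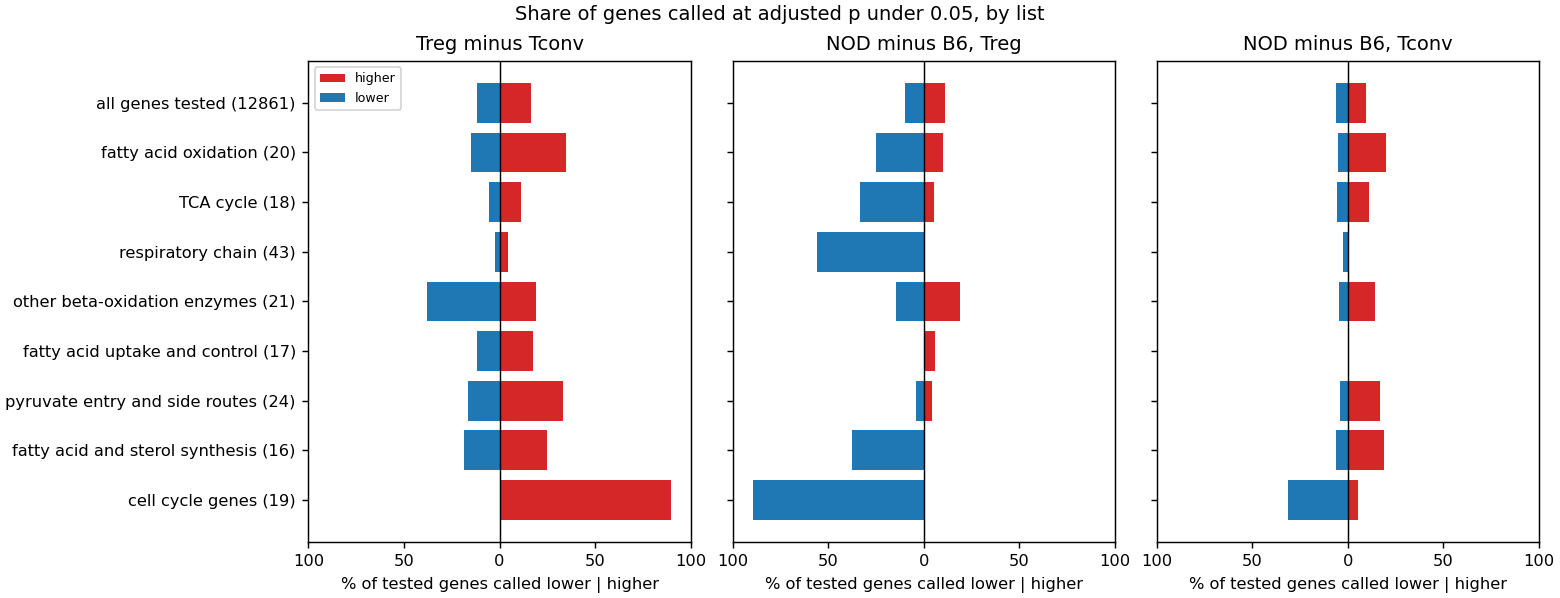
Share of tested genes (number in brackets) called higher (red, to the right) or lower (blue, to the left) at an adjusted p under 0.05, for all genes, both groups of members and 6 other lists, in Treg against Tconv and in NOD against B6 within each cell type. In NOD Treg the respiratory chain (55.8%) and cell cycle genes (89.5%) stand to the left, and the respiratory chain is near 0 in the other comparisons.

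The promoters of the members were searched because several of these genes were called between strains. The RefSeq table (GRCm38.p6; 250 bases before to 50 after each gene's start) held 32 of the 38 genes. The core GCGCNTGCG of NRF1, a regulator of nuclear genes for mitochondrial proteins, was present on either strand in 9 of the 32 (28.1%), in 6.31% of all 32851 promoters and in 12.1% of the 12961 promoters of tested genes. Of the 9 genes, Acadm, Etfb, Sdha and Sdhd were called between strains in Treg, and Etfdh, Idh3g, Ogdh, Dld and Sucla2 were called in no comparison. Of all 38 members, 14 were called between strains in Treg. The calls of Acadm, Etfb and Sdhd were each lost with single arrays left out. A link between matches and strain calls was not tested. A stretch of 60 bases with the match in capitals, read along the gene's strand, is given for the 4 called genes (chr3:153944769-153944828, minus strand; chr7:43444012-43444071, plus strand; chr13:74350304-74350363, minus strand; chr9:50603894-50603953, minus strand).
Acadm: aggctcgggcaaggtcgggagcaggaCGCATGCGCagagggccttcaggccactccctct
Etfb: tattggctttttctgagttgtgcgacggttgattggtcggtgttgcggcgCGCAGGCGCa
Sdha: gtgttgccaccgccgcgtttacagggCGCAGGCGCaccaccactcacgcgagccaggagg
Sdhd: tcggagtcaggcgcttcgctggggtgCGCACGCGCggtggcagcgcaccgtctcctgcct
Each holds the core as read from the opposite strand, and Acadm, of these 4, was the gene higher in NOD Treg. The element TNAAGGTCA of estrogen-related receptors was found in 1 member promoter, that of Sdhd (3.12%, against 1.28% of all promoters and 0.779% of those of tested genes), the ETS core CCGGAAGT in those of Cpt2, Slc25a20 and Dlst (9.38%, against 3.89% of all promoters and 7.34% of those of tested genes), and the forkhead core TGTTTAC in 0 of the 32 (against 3.65% and 2.66%). No matches of different motifs overlapped. A match describes letters and is not a binding site.

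The reporter alleles were compared to ask how these genes differ between fusion and ires lines. Each allele on each background was a separate mouse line, so an effect of the allele and a difference between lines cannot be told apart. In Treg 1 of the 38 was called lower in fusion than in ires, Suclg2 (where 0.21% of all genes were called lower), and none was called higher (where 0.397% were), with 3 at an unadjusted p under 0.05. In Tconv 0 were called by limma (where 0.0233% of all genes were called in either direction), with 1 at an unadjusted p under 0.05. The difference between the allele effects in Treg and Tconv called 0 (where 0.0467% of all genes were called), again with 1 at an unadjusted p under 0.05. Apart from Suclg2 the allele differences in Treg lay between -0.22 (Echs1) and 0.25 (Sdhb).

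Suclg2 encodes the GDP-forming beta subunit of succinyl-CoA ligase. Its values (probe set 10607497) were 7.60 and 7.76 in NOD fusion Treg and 7.93 and 7.70 in NOD fusion Tconv. On the other 12 arrays they ran from 8.45 to 9.04, namely 8.78, 9.03, 8.87 and 8.95 in B6 Treg, 8.86, 8.79, 8.77 and 8.89 in B6 Tconv, 9.04 and 8.58 in NOD ires Treg, and 8.97 and 8.45 in NOD ires Tconv. The 4 NOD fusion arrays, Treg and Tconv alike, thus lay below every other array. In Treg over both strains fusion differed from ires by -0.57 ± 0.12 (adjusted p = 0.0385), a call lost without any 1 of the Treg arrays other than NOD ires replicate 2 (adjusted p 0.0579 to 0.216), without the filter (adjusted p = 0.052) and after centring (adjusted p = 0.0548). Taken by strain over both cell types, a comparison added after the values were seen, the allele difference was -1.01 ± 0.12 in NOD (adjusted p = 0.000256) and -0.01 ± 0.12 in B6 (adjusted p = 0.996). The difference between the strains was -1.0 ± 0.17 (adjusted p = 0.017). The strain differences of Suclg2, -0.66 ± 0.12 (adjusted p = 0.00075) in Treg and -0.56 ± 0.12 (adjusted p = 0.00458) in Tconv, are means over both lines of a strain, and in NOD only the fusion line was low.

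The second probe set of Suclg2 (10546538) was also lowest in that line, from 7.13 to 7.48 on the NOD fusion arrays and from 7.94 to 8.58 elsewhere. Its allele difference in NOD was -1.0 ± 0.12 (adjusted p = 0.000469). In Treg over both strains its allele difference was -0.55 and was not called (adjusted p = 0.0548 by limma over all probe sets with 1 symbol). In that same fit the first probe set was called (adjusted p = 0.0475). The 6 genes that neighbour Suclg2 in the GRCm38.p6 annotation and were tested (Slc25a26, Lrig1, Kbtbd8, Eogt, Tmf1 and Uba3) differed by -0.12 to 0.11 between alleles in NOD, and none was called. The ADP-forming partner Sucla2 and the shared alpha subunit Suclg1 were called in no comparison (Treg against Tconv, -0.17 ± 0.09 and -0.14 ± 0.07).

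Slc22a5, Pdk1 and Acss2, of the other lists of these pathways, differed more between Treg and Tconv than any member did. Of 17 tested genes of fatty acid uptake, activation and control, 3 were higher and 2 lower in Treg than in Tconv. These shares, 17.6% and 11.8%, were near those of all genes, 16.6% and 11.8%. The lower count fell with most single arrays left out. Slc22a5, the carnitine importer of the plasma membrane, was higher by 1.01 ± 0.10 (adjusted p = 9.85e-08), and the fatty acid binding protein Fabp5 by 0.38 ± 0.06. Ppargc1b, a coactivator of mitochondrial genes, was lower by -0.21 ± 0.06. Between strains only Nrf1 was called, higher in NOD Treg by 0.35 ± 0.09 (adjusted p = 0.0125). That is 5.88% of the list, where 11.1% of all genes were higher. The Nrf1 call was lost with B6 fusion replicate 1 or NOD ires replicate 1 of Treg left out.

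Of 21 further beta-oxidation and related enzymes, 4 were higher and 8 lower in Treg (19.0% and 38.1%, where 16.6% and 11.8% of all genes were). Oxct1, which activates ketone bodies, was lower by -0.60 ± 0.07, Pccb, of propionyl-CoA carboxylase, by -0.51 ± 0.07, and the peroxisomal transporter Abcd3 by -0.38 ± 0.07, while Acadsb, the dehydrogenase for short branched chains, was higher by 0.48 ± 0.07. Between strains, 4 were higher and 3 lower in NOD Treg (19.0% and 14.3%, where 11.1% and 9.77% of all genes were), with a median of 0.08. In NOD Tconv 3 were higher and 1 lower (14.3% and 4.76%, where 9.33% and 6.48% of all genes were), with a median of 0.13. The acyl-CoA thioesterase Acot13 was lower in NOD in both cell types (-0.89 ± 0.11 in Treg and -0.68 ± 0.11 in Tconv). Acad11, an acyl-CoA dehydrogenase, was higher in NOD Treg (0.37 ± 0.08), and the peroxisomal bifunctional enzyme Ehhadh (0.46 ± 0.09), Pccb (0.45 ± 0.10) and Acad8 of valine breakdown (0.32 ± 0.09) were higher in NOD Tconv. The 4 higher in Treg became 1 without B6 fusion Treg replicate 1 and 2 without B6 ires replicate 1, NOD fusion replicate 2 or NOD ires replicate 1 of Treg, and the 3 lower became 1 without B6 ires Treg replicate 2 and 2 after centring. The 3 higher in Tconv became 6 without either B6 fusion Treg array, 6 after centring and 1 with the covariate.

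At the entry of pyruvate and the side routes of the cycle, 8 of 24 genes were higher and 4 lower in Treg. These were 33.3% and 16.7%, where 16.6% and 11.8% of all genes were. Pdk1, a kinase that switches off pyruvate dehydrogenase, was lower in Treg by -1.09 ± 0.06 (adjusted p = 5.14e-11), and Pdk3, of the same family, was higher by 0.46 ± 0.07. Malic enzyme Me2 differed by -0.49 ± 0.07 and glutamate dehydrogenase Glud1 by 0.40 ± 0.07. Pdk1 was also lower in NOD than in B6, by -1.85 ± 0.08 in Treg and -2.16 ± 0.08 in Tconv, a larger difference than that of any member. Nnt, the transhydrogenase that is disrupted in the C57BL/6J substrain, was higher in NOD by 0.41 ± 0.09 in Treg and 0.46 ± 0.09 in Tconv. The labels do not name the B6 substrain. Of 16 tested genes of fatty acid and sterol synthesis, 4 were higher and 3 lower in Treg, or 2 higher without B6 fusion Treg replicate 2 or NOD ires Treg replicate 2. Acss2, the cytosolic acetyl-CoA synthetase, was lower by -1.08 ± 0.07, and the desaturase Scd2 was higher by 0.52 ± 0.09. In NOD Treg 6 of the 16 were lower than in B6 Treg (37.5%, where 9.77% of all genes were) and 0 higher (where 11.1% were). Among the 6 were Acss2 (-0.85 ± 0.10), the mitochondrial synthase Oxsm (-0.75 ± 0.10) and Fdps of the sterol pathway (-0.38 ± 0.09). That count was 3 without B6 fusion replicate 2, NOD fusion replicate 1 or NOD ires replicate 1 of Treg, and 3 after centring.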

How the data were processed

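Intensities of 25108 probe sets on 16 arrays were used as deposited. The authors made them with RMA in Affymetrix Power Tools, per the submitters' processing notes, and the deposited intensity values are linear. Tool versions and genome build were not given in the sources used here. Of these, the 21157 probe sets with exactly 1 symbol covered 19531 genes. Log2 values were taken without a pseudocount, and the filter was the 40th percentile of the deposited values. A model with 1 mean per group was fitted with limma 3.58.1 in R 4.3.3 (8 residual and 9.83 prior degrees of freedom), with two-sided tests. Contrasts compared Treg with Tconv (4 lines together), fusion against ires and NOD against B6 in each cell type, and the differences of these effects between cell types. Every member called in any contrast was described in full, and of each other list up to 4 called genes with the largest difference. The members, lists and rules were chosen with earlier results of these data known. Lists were described by counts and medians only. Matches of the array's probes to NOD sequence were not examined.

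Alternatives were quantile normalization, arrays centred on their medians, no filter or that at the 60th percentile, trend and robust variances, averaged probe sets per gene, a pseudocount of 16, replicate blocks, a model restricted to the compared groups, and each array left out. The interquartile range as a covariate, the allele effect of Suclg2 by strain, the other probe sets and the respiratory chain count under each alternative were added after the data were seen. In a test on simulated data for Treg against Tconv with 200 of 12861 genes changed, 59% of changes of 0.3, 94% of 0.5 and 100% of 1 (log2) were recovered. Plots used Python 3.11.15 with matplotlib 3.10.9. Promoter sequences are those of RefSeq, GRCm38.p6.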

Additional observations from a re-analysis of the deposited data

Results flagged for a closer look

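Effects that differed between groups by the test of the difference itself are given here as values. For Suclg2 the comparison was added after its values were seen, so the p comes from the values that prompted it. The allele difference of Suclg2 in NOD minus that in B6 was -1.0 ± 0.17 over both cell types (adjusted p = 0.017, 1 of 15 genes called). With 1 array left out it ran from -1.13 to -0.87, with adjusted p between 0.00217 and 0.101.

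The strain effect in Treg minus that in Tconv was -0.81 ± 0.19 (adjusted p = 0.0475) for Cox7a2, a subunit of cytochrome c oxidase, and -0.52 ± 0.12 (adjusted p = 0.0421) for Ndufs8, a subunit of complex I. Leaving out 1 array ended the first call in 12 of 16 cases and the second in 14, with adjusted p up to 0.141 and 0.154. Of the myeloid and dendritic cell markers, it was -1.85 ± 0.41 (adjusted p = 0.0345) for Cd74, the chaperone of class II molecules, and -0.83 ± 0.19 (adjusted p = 0.0418) for the integrin Itgam. These calls were lost in 9 and 13 of 16 cases, with adjusted p up to 0.138 and 0.116, and at least 1 of the 2 was lost whichever array was left out. The Cd74 call was also lost with the interquartile range as a covariate (adjusted p = 0.0659). Of the Treg markers, it was -0.94 for Tnfrsf18 and -0.93 for Lrrc32, both called with any 1 array left out. For the transcription factor Eomes, listed as a marker of cytotoxic lymphocytes, it was 0.99 ± 0.21 (adjusted p = 0.0291), a call lost in 9 of 16 cases (adjusted p up to 0.108) and after quantile normalization (adjusted p = 0.0529).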

How the results depend on the processing

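Of the values of single members under alternatives, 824 kept their direction and their side of the threshold, 98 kept the direction and lost the call, and 1 reversed, Mdh2 in NOD against B6 Treg, at 0.01 after quantile normalization, where the cause was not tested. These values are of members in contrasts where the main fit called them, so calls gained under an alternative are not among them. Members called higher in NOD Treg were 1 without a filter, 5 after quantile normalization and 1 with the interquartile range as a covariate, and those called lower were 7 after centring. With that covariate, 5 members were called in Tconv, 3 of them higher. The allele difference in Treg called 0 without a filter and 0 after centring. The strain effect in Treg minus that in Tconv called 2 with the stricter filter, 2 with trend and robust variances, 2 with the pseudocount and 1 with the covariate. Respiratory chain genes lower in NOD Treg were 15 after centring.

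With each array left out, members called were 12 to 14 in Treg against Tconv (8 to 10 higher, 4 to 5 lower), 8 to 15 in NOD against B6 Treg (1 to 3 higher, 6 to 12 lower), 4 to 8 in Tconv (2 to 6 higher, 2 lower throughout), 0 to 1 for the allele in Treg, 0 to 2 for the strain effect in Treg minus that in Tconv, and 12 to 28 respiratory chain genes. When an array is left out, the lone array of its group is assumed to vary like the others.

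The replicate numbers were not taken as pairs. The differences between replicates 1 and 2 correlated between cell types by 0.398 in B6 fusion, 0.238 in NOD fusion, 0.396 in B6 ires and 0.0786 in NOD ires. With the number as a replicate block, 15 members were called in Treg against Tconv (11 higher, 4 lower), 16 in NOD against B6 Treg (4 higher, 12 lower) and 8 in Tconv. No scanner files were used, so background correction was not varied. The 2 arrays per group limit the precision.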
